A study of Mus musculus with 2 samples.

Results

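The 10 genes described here encode transcription factors that direct the formation of red cells and other blood cells: Gata1, Klf1, Tal1, Lmo2, Nfe2, Zfpm1, Gfi1b, Myb, Runx1 and Gata2. They were chosen by name. That choice, and the choice of the gene lists described below, was made with earlier results of these data known. Every probe set annotated to exactly 1 gene, that gene being one of the 10, was taken, which gave 19 probe sets of the 45101 on the array and 10 of the 18193 genes represented. The RNA was that of entire mouse embryos collected 8.5 days post coitum. One Affymetrix array carried RNA from matUPD18 embryos, whose chromosome 18 pair was wholly maternal in origin, and 1 array carried RNA from patUPD18 embryos, whose pair was wholly paternal. The labels name disomy of chromosome 18 only. Nothing used here states the parental strains, the sex of the embryos or how many were behind each RNA. None of the 10 genes lies on chromosome 18: Gata1 is on the X, Klf1 and Zfpm1 are on 8, Lmo2 and Gfi1b on 2, Tal1 on 4, Gata2 on 6, Myb on 10, Nfe2 on 15 and Runx1 on 16.

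Blood begins outside the embryo proper, in blood islands of the yolk sac, where primitive red cells form beside the first endothelium and then enter the circulation. Gata1, Klf1, Gfi1b and Nfe2 act mainly in maturing red cells and megakaryocytes. Tal1 and Lmo2 bind DNA with GATA factors as one complex and are also used by endothelium and progenitors, as are Gata2 and Runx1, while Myb is needed for the later, definitive wave of red cells. With whole embryos, fewer blood cells and less RNA per blood cell cannot be told apart.

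The values are MAS5 signal intensities, which have no absolute unit. A signal below the 40th percentile of its array (84.2 in matUPD18, 82.5 in patUPD18) was raised to that floor before ratios were taken. A gene, read by its probe set of highest mean signal, was called measurable where at least 1 of its signals reached the 60th percentile of its array (190.1 in matUPD18, 184.9 in patUPD18). All log2 ratios are matUPD18 over patUPD18. With 1 array per genotype there was no replicate, no test and no error between embryos, so the text gives both signals and a fold. Where a gene had several measurable probe sets, their log2 ratios differed by a pooled SD of 0.44 (10206 probe sets of 4003 genes), a measure of technical disagreement that leaves out the spread between embryos.

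Promoter sequence is shown for the 4 genes with the lowest ratios and for Gata2, whose brighter probe set read alike on both arrays, so that their upstream regions can be compared. Each run covers the 250 bases before an annotated transcription start, from RefSeq on build GRCm38.p6, and is written 5′ to 3′ on the strand of the gene. Capitals mark GATA words (AGATAA and its variant AGATAG, each also with T as the first letter, which GATA factors bind), the CACCC box (CACCC, which Klf1 binds) and the CCAAT box (CCAAT, a general promoter element). For Tal1 and Gata2, which have 2 windows each, the window with matches is printed, chosen after the matches were known. The unprinted window of each held 0 GATA words, 0 CACCC boxes and 0 CCAAT boxes. Both strands were searched, and no base was shared by 2 matches in the windows of these genes.
Gfi1b, chr2:28621983-28622232, minus strand: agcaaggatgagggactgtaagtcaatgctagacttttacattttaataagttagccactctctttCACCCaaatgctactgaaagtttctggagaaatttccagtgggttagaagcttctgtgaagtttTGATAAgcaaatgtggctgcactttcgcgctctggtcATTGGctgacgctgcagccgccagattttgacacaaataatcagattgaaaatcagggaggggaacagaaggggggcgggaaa
Gata1, chrX:7967911-7968160, minus strand: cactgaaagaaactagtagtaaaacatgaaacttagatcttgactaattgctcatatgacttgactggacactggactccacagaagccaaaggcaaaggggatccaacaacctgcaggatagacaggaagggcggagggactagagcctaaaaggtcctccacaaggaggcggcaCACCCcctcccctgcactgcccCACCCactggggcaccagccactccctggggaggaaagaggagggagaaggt
Klf1, chr8:84901732-84901981, plus strand: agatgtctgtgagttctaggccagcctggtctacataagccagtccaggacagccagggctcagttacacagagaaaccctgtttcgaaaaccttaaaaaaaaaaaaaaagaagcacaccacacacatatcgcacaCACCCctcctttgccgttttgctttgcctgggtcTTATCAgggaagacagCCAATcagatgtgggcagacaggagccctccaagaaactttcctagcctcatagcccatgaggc
Tal1, chr4:115056176-115056425, plus strand, the first of its 2 windows: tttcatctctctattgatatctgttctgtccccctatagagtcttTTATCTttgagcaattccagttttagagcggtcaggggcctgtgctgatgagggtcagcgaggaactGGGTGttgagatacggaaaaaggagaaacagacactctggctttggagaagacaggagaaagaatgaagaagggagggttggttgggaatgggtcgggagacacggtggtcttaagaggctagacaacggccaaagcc
Gata2, chr6:88198414-88198663, plus strand, the second of its 2 windows: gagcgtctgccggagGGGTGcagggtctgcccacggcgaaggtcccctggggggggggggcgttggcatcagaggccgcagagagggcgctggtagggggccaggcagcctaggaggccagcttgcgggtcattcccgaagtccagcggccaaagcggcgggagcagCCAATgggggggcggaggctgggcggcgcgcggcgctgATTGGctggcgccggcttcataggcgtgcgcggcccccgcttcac

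RefSeq windows were matched for 8 of the 10 genes, 11 windows in all; Lmo2 and Nfe2 had none. A GATA word was found in 3 of the 11 windows (27.3%), those of Klf1, Gfi1b and the first of Tal1, and in 26.6% of all 32817 windows in the table. In Klf1 it began at base -80, in Gfi1b at -120 and in Tal1 at -205, counted from the start site. A CACCC box was found in 8 of the 11 windows (72.7%) and in 52.0% of all windows. The Gata1 window had a pair of them, at bases -74 and -52. A CCAAT box was found in 5 of the 11 windows (45.5%) and in 33.8% of all windows. In Klf1 it lay at base -64, between the GATA word and the start, and in Gfi1b at base -83 on the other strand. These matches describe letters and not bound sites, and the share with a GATA word was near that of all windows.

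Gfi1b, Gata1 and Klf1 read at least 2-fold lower in matUPD18, while Lmo2, Gata2, Zfpm1 and Runx1 were at most 1.22-fold apart by their brightest probe sets. Tal1 lay between these groups at 1.66-fold lower. Nfe2, which like the 3 lowest genes acts in maturing red cells, read 158.4 in matUPD18 and 165.5 in patUPD18, below the measurable limit on both. Of the 10 genes, 8 were measurable, and 3 of these were at least 2-fold lower and 0 at least 2-fold higher in matUPD18. Among all 10484 measurable genes, 1.78% were at least 2-fold lower and 2.7% at least 2-fold higher. The median log2 ratio of the 8 genes was -0.42, against -0.04 over all measurable genes. Gata1 and Gfi1b passed the measurable limit on the patUPD18 array only and Runx1 on the matUPD18 array only, so the count and median of those that passed lean on the filter. Without it, 3 of all 10 genes were at least 2-fold lower and 0 higher, with a median of -0.08, against 1.17% lower and 1.74% higher among all 18193 genes.

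**Figure D1:**
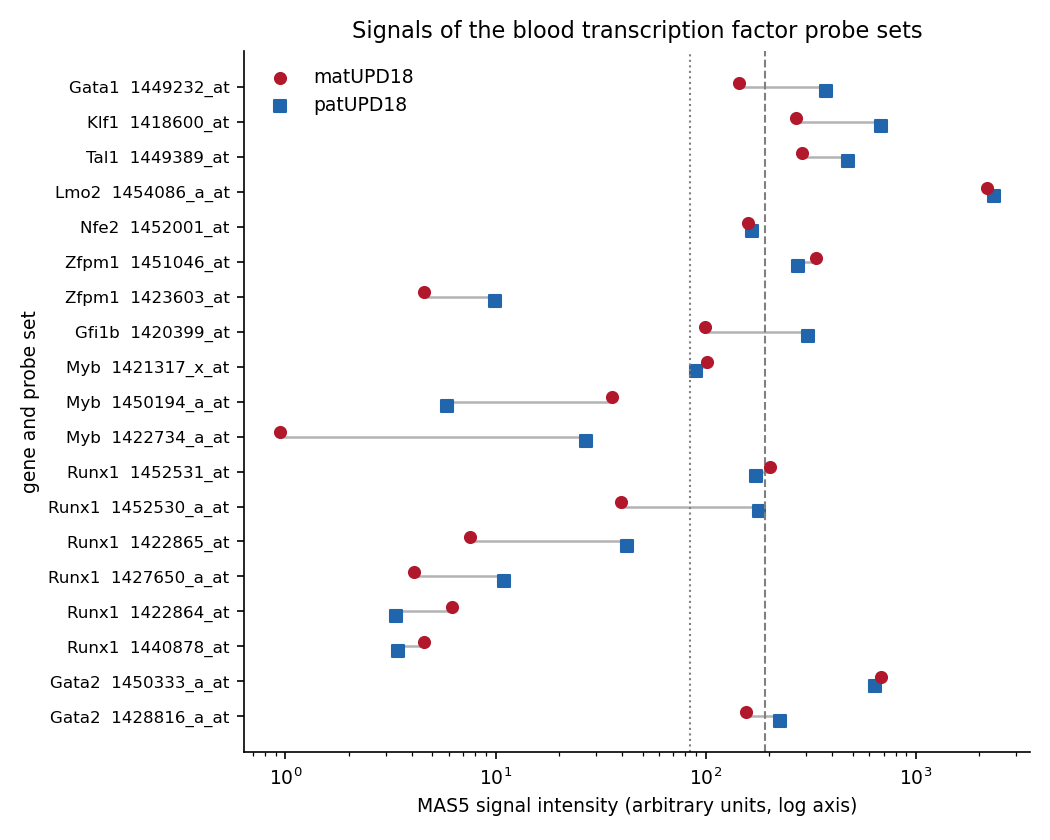
MAS5 signal (log axis) of each of the 19 probe sets on the matUPD18 array (red circles) and the patUPD18 array (blue squares), joined by a grey line. The dotted line marks the floor (84.2) and the dashed line the measurable limit (190.1) of the matUPD18 array. For Gata1, Klf1 and Gfi1b the patUPD18 signals lie far to the right of the matUPD18 signals. Wider gaps at some Myb and Runx1 probe sets involve signals under the floor.

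Gata1 encodes the zinc finger factor without which red cells and platelets do not mature, and it lies on the X chromosome. Its single probe set (1449232_at) had a signal of 143.9 in matUPD18 and 371.4 in patUPD18. The gene was thus 2.58-fold lower in matUPD18 (log2 ratio -1.37), the rank 65 from the lowest of the 10484 measurable genes. The matUPD18 signal was above the floor but below the measurable limit. Because Gata1 is X-linked, the markers of embryo sex are given beside it. Xist, the RNA of the inactive X, read 1568 in matUPD18 and 128.1 in patUPD18, whereas the Y-linked genes Eif2s3y (1392 in matUPD18, 1448 in patUPD18) and Kdm5d (526.4 in matUPD18, 533.9 in patUPD18) read alike on both arrays. Another Y-linked gene, Uty, read 301.9 in matUPD18 and 153.3 in patUPD18. Over the 365 measurable X-linked genes the median log2 ratio was 0.03, and Gata1 had the rank 3 from the lowest among them. The part of embryo sex in the Gata1 value was not tested.

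Gata2, the GATA factor of progenitors that Gata1 replaces at shared sites as red cells mature, did not share the Gata1 ratio. Its brighter probe set (1450333_a_at) showed 680.4 in matUPD18 and 635.3 in patUPD18, a log2 ratio of 0.10. Its dimmer probe set pointed the other way, with 155.8 in matUPD18 and 224.7 in patUPD18 (log2 ratio -0.53). The probe sets thus disagreed in direction, and neither reached 2-fold. Zfpm1 encodes the zinc finger cofactor that binds GATA factors. Of its 2 probe sets, the measurable one (1451046_at) had a signal of 333.8 in matUPD18 against 273.2 in patUPD18, 1.22-fold higher in matUPD18. Its other probe set was under the floor on both arrays (4.57 in matUPD18, 9.99 in patUPD18) and gives no ratio.

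Klf1, the zinc finger activator of globin and red cell membrane genes, was read by 1 probe set (1418600_at) at 267.0 in matUPD18 and 678.7 in patUPD18. It was 2.54-fold lower in matUPD18 (log2 ratio -1.35) and had the rank 69 from the lowest. Unlike Gata1 and Gfi1b it passed the measurable limit on both arrays. With measurable genes divided into 3 equal classes of mean signal, Klf1 fell in the middle class, where 0.973% of genes were at least 2-fold lower. Gata1, Gfi1b and Tal1 fell in the dimmest class, where the share was 3.72%, and Lmo2 in the brightest, where it was 0.658%.

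Gfi1b, a zinc finger repressor of red cell and megakaryocyte precursors, had the lowest ratio of the 10 genes. Probe set 1420399_at gave 98.9 in matUPD18, little above the floor of 84.2, and 307.2 in patUPD18. It was 3.11-fold lower in matUPD18 (log2 ratio -1.64), the rank 21 from the lowest of all measurable genes. With the floor raised to the 60th percentile its log2 ratio was -0.69 and that of Gata1 was -0.97, and only Klf1 stayed past 2-fold. Gfi1b acts by recruiting the demethylase Kdm1a and its partner Rcor1. Kdm1a read 3523 in matUPD18 and 3732 in patUPD18, a log2 ratio of -0.08, and Rcor1 read 1174 in matUPD18 and 661.0 in patUPD18, a log2 ratio of 0.83. The 2 other measurable probe sets of Rcor1 had log2 ratios of -0.58 and 0.12, so its direction is not settled. Gfi1, the related repressor of white cells and progenitors, was under the floor on both arrays, at 34.8 in matUPD18 and 10.2 in patUPD18.

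**Figure D2:**
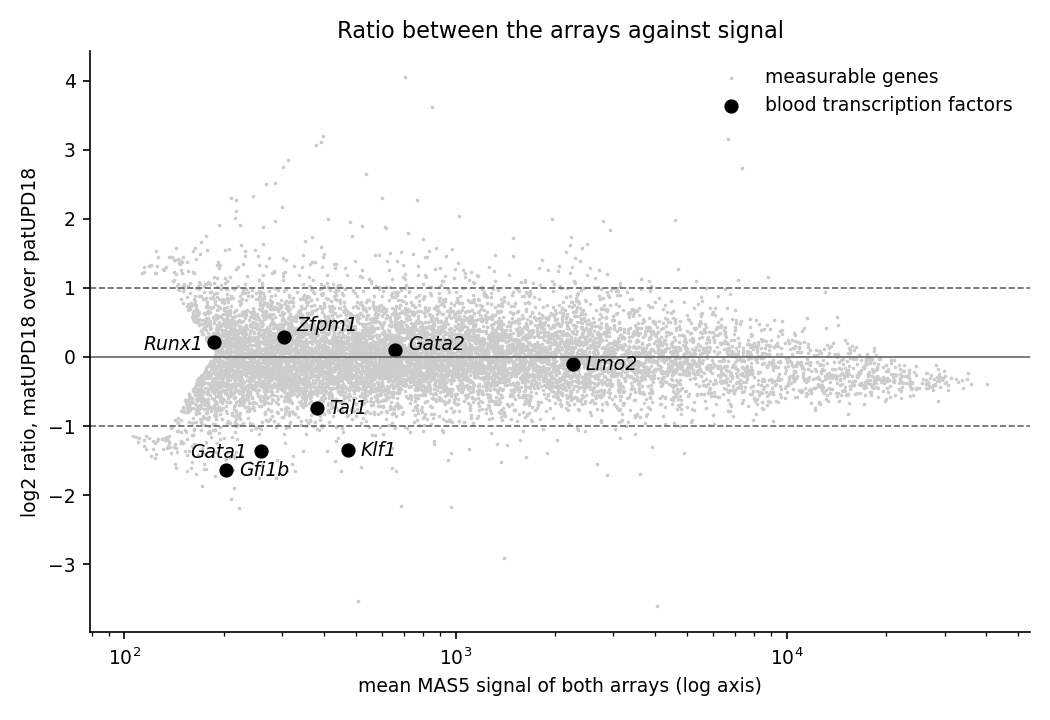
Log2 ratio of matUPD18 over patUPD18 against the mean signal of both arrays (log axis) for the 10484 measurable genes (grey) and the 8 measurable blood transcription factors (black, named). Dashed lines mark 2-fold; Gfi1b, Gata1 and Klf1 lie below -1, and the other 5 lie inside the lines.

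Tal1, a helix-loop-helix factor at the head of the blood programme, read 285.6 in matUPD18 and 475.3 in patUPD18 by its only probe set (1449389_at). It was 1.66-fold lower in matUPD18 (log2 ratio -0.73), the rank 511 from the lowest. At 1.5-fold, 8.74% of measurable genes were lower in matUPD18 and 9.97% higher. Lmo2, the LIM protein that bridges Tal1 and GATA factors, had the brightest probe set of the 10 (1454086_a_at), with 2184 in matUPD18 and 2348 in patUPD18. Signals of different probe sets do not rank the genes' levels. The log2 ratio of -0.10 was within the SD of 0.44 between probe sets. The Tal1 partners Tcf3 and Tcf12 had log2 ratios of -0.04 and -0.20, although the other 4 measurable Tcf12 probe sets ranged from -0.19 to 2.10. Lyl1, the close relative of Tal1, read 278.4 in matUPD18 and 360.9 in patUPD18 (log2 ratio -0.37). Ldb1, the scaffold of the complex, was under the floor on both arrays, at 4.47 in matUPD18 and 4.96 in patUPD18.

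Nfe2, Myb and Runx1 were at or near the limit of measurement. Nfe2, the leucine zipper subunit of a globin and platelet gene activator, read (1452001_at) 158.4 in matUPD18 and 165.5 in patUPD18, below the measurable limit on both arrays. Both signals were above the floor and gave a log2 ratio of -0.06, a value of limited weight at so dim a signal. Its small Maf partners Mafg and Mafk had log2 ratios of 0.10 and -0.12.

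Among 3 Myb probe sets the brightest (1421317_x_at) had 101.0 in matUPD18 against 89.4 in patUPD18, while both remaining ones were under both floors. No Myb probe set was measurable, so Myb was not detectable by the limits used here. Runx1, needed for blood stem cells to arise from endothelium, had 6 probe sets, of which 1 (1452531_at) was measurable, at 201.2 in matUPD18 and 172.7 in patUPD18 (log2 ratio 0.22). A different one (1452530_a_at) read 39.4 in matUPD18, under the floor, and 178.0 in patUPD18, just under the measurable limit, in the opposite direction. The remaining 4 were under both floors. Cbfb, the partner of Runx1, read 8378 in matUPD18 and 11469 in patUPD18 (log2 ratio -0.45).

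The folds of the 3 lowest genes depended on how the arrays were scaled. For spiked bacterial and phage transcripts (BioB, BioC, BioD, Cre), each of 18 control probe sets was dimmer in matUPD18, with log2 ratios between -0.88 and -0.41 and a median of -0.56. Scaling the arrays to these controls raised the median of all measurable genes by 0.57. Under it Gfi1b stayed 2.10-fold lower, while Gata1 was 1.74-fold and Klf1 1.72-fold lower in matUPD18. Tal1 had a log2 ratio of -0.17 and Lmo2 became higher in matUPD18, at 0.46. Of the gene lists described below, 4 had medians under 0 as deposited, and under this scaling these were 0.47 for partners, 0.14 for red cell products, 0.40 for signals and 0.30 for megakaryocyte markers. Relative to the median gene, the log2 ratios under that scaling were -1.59 for Gfi1b, -1.33 for Gata1 and -1.30 for Klf1, and under the deposited scaling -1.59, -1.32 and -1.30. This scaling adds the same amount to nearly every log2 ratio, so the agreement relative to the median gene follows from its construction.

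**Figure D3:**
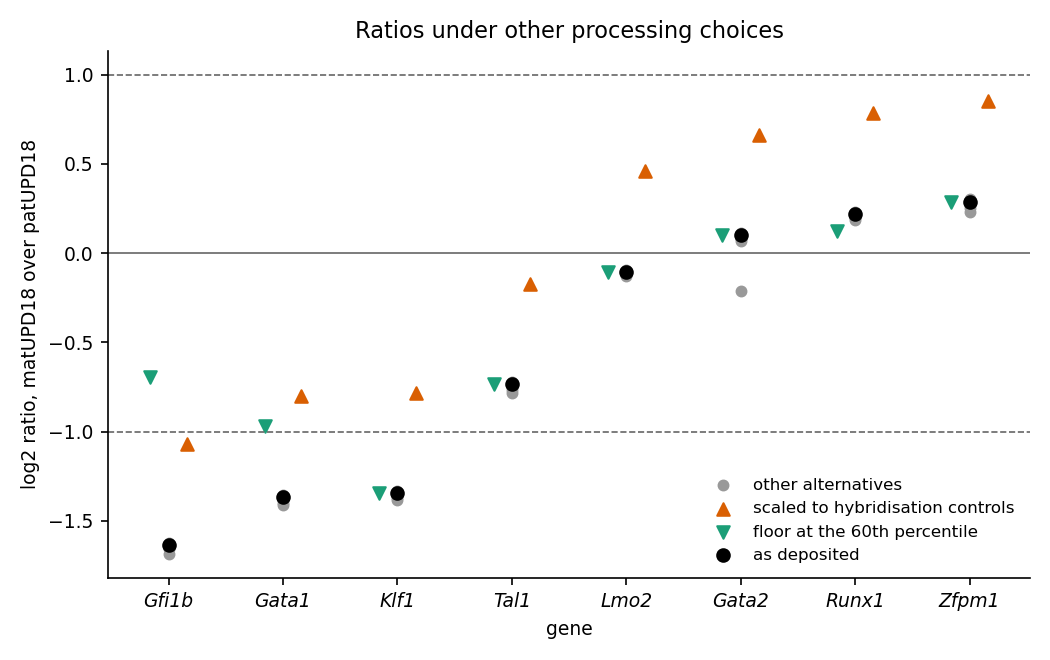
Log2 ratio of matUPD18 over patUPD18 for the 8 measurable genes as deposited (black), when scaled to the hybridisation controls (orange), with the floor at the 60th percentile (green) and under the other alternatives (grey). Dashed lines mark 2-fold; Gfi1b, Gata1 and Klf1 were below 0 under every setting drawn.

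Red cell products that these factors are known to activate were also listed. By their brightest probe sets, Ermap, Slc4a1, Hemgn, Alas2 and Urod read at least 2-fold lower in matUPD18. The list held 40 genes other than the 10, of which 33 were on the array and 25 were measurable. Of these 25, 5 were at least 2-fold lower, 0 at least 2-fold higher and 20 within 2-fold, against 1.78% lower and 2.7% higher among all measurable genes. Their median log2 ratio was -0.43, against -0.04 over all measurable genes. Epor, Rhag, Rhd and Kel passed the measurable limit on the patUPD18 array only and 1 other gene, Sptb, on the matUPD18 array only. Without the limit, 6 of the 33 genes were at least 2-fold lower and 0 higher, with a median of -0.40, against 0.03 over all 18193 genes. That 0.03 is the log2 ratio between the floors, which every gene under both floors is given. The ratio of Gata1 and Klf1 was close to that of Slc4a1, the red cell anion exchanger, which read 2695 in matUPD18 and 7093 in patUPD18 (log2 ratio -1.40). Ermap, a red cell membrane protein, had a log2 ratio of -1.65, and Hemgn, a nuclear protein of blood cells, -1.39. Alas2, the first enzyme of haem synthesis in red cells, had one of -1.21. Like Gata1 it is X-linked, and the part of embryo sex in its value was not tested. Urod, a later enzyme of haem synthesis, read 3180 in matUPD18 and 6381 in patUPD18 (log2 ratio -1.01). The second measurable probe set of Slc4a1 had a log2 ratio of -0.83 and that of Urod -0.76, both short of 2-fold.

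The other measurable genes on that list were within 2-fold by their brightest probe sets. Of its 25 measurable genes, 21 had log2 ratios below 0 and 4 above, against 5652 below and 4832 above among all 10484. Hbb-y, an embryonic globin and the brightest of the list, read 23063 in matUPD18 and 30979 in patUPD18 (log2 ratio -0.43). The highest signal of any probe set was 34954 in matUPD18 and 46322 in patUPD18. For Hbb-y, log2 ratios of -2.03 and -0.37 came from 2 further probe sets. Epor, the erythropoietin receptor, had a log2 ratio of -0.41. The highest 3 were Sptb (0.32), Tmcc2 (0.30) and Car2 (0.12), although the other measurable probe set of Sptb read -0.30. Summed over the 33 genes, the signal was 68924 in matUPD18 and 98872 in patUPD18. With median centring, quantile normalization, loess or the median of measurable probe sets, 4 genes of the list were at least 2-fold lower. Under the scaling to the hybridisation controls 1 gene of the list was at least 2-fold lower.

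The partners and co-regulators of the 10 factors lay on both sides of 0. Of 30 genes, 29 were on the array and 26 measurable, with 1 at least 2-fold lower, 1 at least 2-fold higher and a median log2 ratio of -0.10. The lowest was Cbfa2t3, a corepressor found with Tal1, at 251.5 in matUPD18 and 522.7 in patUPD18 (log2 ratio -1.06), but its other measurable probe set read 1.59. Maff had a log2 ratio of -0.84. The highest was Bach1, a repressor that pairs with small Maf proteins, at 3111 in matUPD18 and 1458 in patUPD18 (log2 ratio 1.09), and its other measurable probe set read -0.71. The coactivators Med1 and Ep300 had log2 ratios of 0.89 and 0.87. For Med1, 2 of 3 further probe sets agreed in sign.

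Other transcription factors of blood formation were likewise spread, with 18 of 30 measurable, 0 at least 2-fold lower, 1 at least 2-fold higher and a median of 0.07. The lowest were Hoxa9 (log2 ratio -0.89), Trim10 (-0.71), a protein needed for red cell maturation and listed here though it is not a DNA-binding factor, and Sox6 (-0.61), which acts in red cell maturation. For Hoxa9 and Sox6 every further measurable probe set had the other sign. The highest was Fli1, a factor of megakaryocytes and endothelium, at 311.8 in matUPD18 and 150.2 in patUPD18 (log2 ratio 1.05). Klf3 had a log2 ratio of 0.72, with 2 of 3 further probe sets of the same sign, Ikzf2 0.56, and Meis1, the brightest of the list, -0.16. Spi1, the master factor of myeloid cells, was not measurable, at 180.0 in matUPD18 and 132.6 in patUPD18.

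Receptors and signals of blood progenitors had a median of -0.16, with 14 of 20 measurable, 1 at least 2-fold lower and 0 at least 2-fold higher. The lowest was Csf2rb, a shared cytokine receptor chain, at 433.0 in matUPD18 and 879.9 in patUPD18 (log2 ratio -1.02), followed by Socs3 (-0.62) and Notch1 (-0.50). Stat3 (0.78), Kitl (0.76) and Kdr (0.65) were the highest, and Bmpr1a, the brightest, had a log2 ratio of 0.50. Kit, the receptor of early progenitors, read 508.6 in matUPD18 and 429.4 in patUPD18 (log2 ratio 0.24). A second measurable probe set of Notch1, Stat3 and Kitl gave the other sign in each case, and 3 of 4 further probe sets of Bmpr1a agreed in sign.

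**Figure D4:**
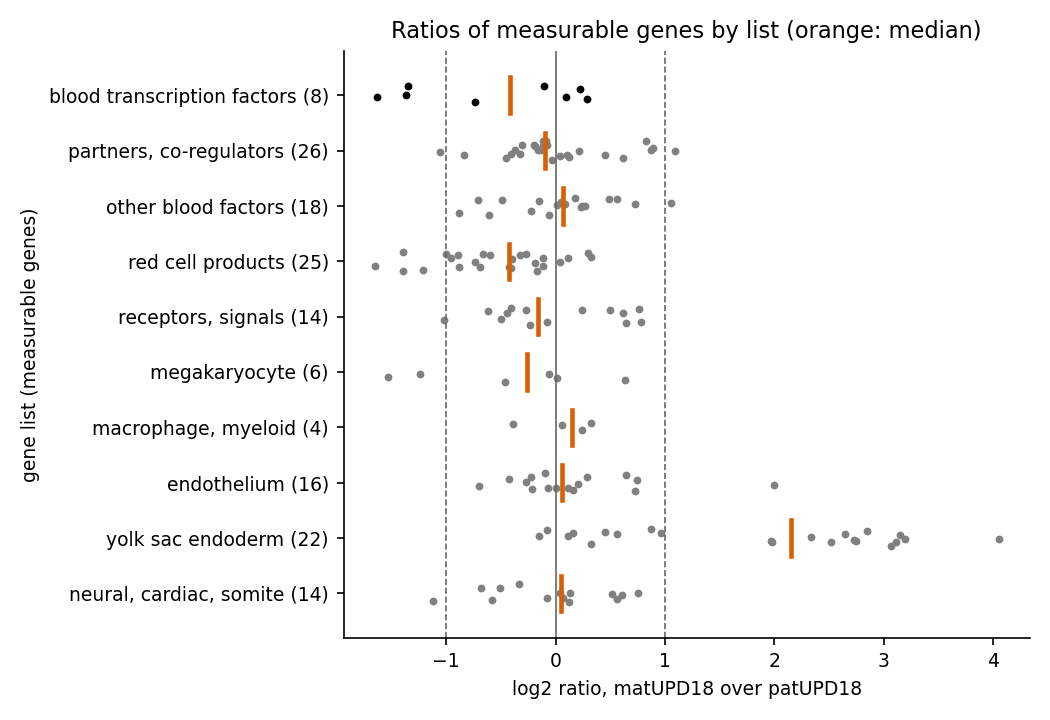
Log2 ratio of matUPD18 over patUPD18 for the measurable genes of each list (1 point per gene, jittered vertically), with the number of measurable genes in brackets and the list median in orange. The blood transcription factors spread from -1.64 to 0.29, red cell products centre at -0.43, and yolk sac endoderm lies far to the right at 2.15.

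Markers of other cells that the embryos could hold are given for comparison. Of the megakaryocyte markers, which share Gata1, Gfi1b and Nfe2 with red cells, 6 of 15 were measurable, with a median of -0.26. Pf4 read 123.6 in matUPD18 and 356.2 in patUPD18 (log2 ratio -1.53) and Itgb3 105.0 in matUPD18 and 247.3 in patUPD18 (-1.24), both measurable on the patUPD18 array only. Without the limit the median of the 13 genes on the array was 0.03, which is the fixed log2 ratio of genes under both floors and not a measured value. Gp1bb had a log2 ratio of -0.46, Treml1 -0.06, Itga2b 0.01 and Rab27b, which lies on chromosome 18, 0.64. Their summed signal was 1984 in matUPD18 and 2254 in patUPD18.

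The endothelial markers, whose cells also use Tal1, Lmo2, Gata2 and Runx1, had a median of 0.06. Of 20 genes 16 were measurable, with 0 at least 2-fold lower and 1 at least 2-fold higher, and a summed signal of 11460 in matUPD18 and 8471 in patUPD18. Emcn (-0.70), Icam2 (-0.42) and Eng (-0.27) were the lowest log2 ratios, and Flt1 (0.74) and Sox18 (0.73) were near the top. Ets1, the highest and brightest, was 3.99-fold higher at 3124 in matUPD18 and 782.9 in patUPD18, with log2 ratios between 0.31 and 2.43 in 2 further probe sets. Pecam1 and Tie1 were under the floor on both arrays.

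Macrophage and myeloid markers were mostly not measurable. The 4 of 15 that were had a median of 0.15, with log2 ratios of -0.39 for Lyz2, 0.06 for Csf1r, 0.24 for Adgre1 and 0.33 for Fcgr1. Csf1r lies on chromosome 18. Its direction was not settled, since 2 further measurable probe sets of it had log2 ratios of -0.05 and -1.40. The defining markers C1qa, Itgam and Fcer1g were under the floor on both arrays. The list's summed signal was 1759 in matUPD18 and 1752 in patUPD18.

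Yolk sac and visceral endoderm markers were the furthest apart, with 13 of 22 measurable genes at least 2-fold higher in matUPD18, 0 at least 2-fold lower and a median of 2.15. Of the 22, 11 passed the measurable limit on the matUPD18 array only. Their summed signal was 42383 in matUPD18 and 9928 in patUPD18, led by Afp, the fetal serum protein, at 12717 in matUPD18 and 1914 in patUPD18. Apoa1 was at least 16.6-fold, Apom at least 9.17-fold and Ttr 8.88-fold higher by their brightest probe sets, although a second Apom probe set, at 232.6 in matUPD18 against 180.1 in patUPD18, had a log2 ratio of 0.37. By contrast, Apoa2 (log2 ratio -0.15), Ihh (-0.08) and Sox17 (0.12) were the lowest. Ttr lies on chromosome 18, the disomic chromosome, as do Spink1 and Gata6 of this list. The part of the disomy itself in their values was not tested. The yolk sac is also where primitive red cells form. Under the deposited scaling the median log2 ratio was 2.15 for its endoderm markers and -0.43 for the red cell products. What part a difference in yolk sac content has in the values of the blood factors was not tested.

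The labelled tissue was checked against neural, cardiac and somite markers, of which 14 of 18 were measurable on both arrays, with a median of 0.05. Actc1, of cardiac muscle, was the brightest at 7165 in matUPD18 and 10179 in patUPD18. Hes5 (log2 ratio -1.12), Myl2 (-0.68) and Meox1 (-0.58) were the lowest and Tbx5 (0.75), Pax3 (0.61) and Otx2 (0.56) the highest, although 1 of 2 further Pax3 probe sets read -0.28. Of the trophoblast and decidua markers 3 of 12 were measurable, Hand1 (0.50), Plac1 (0.74) and Dcn (1.37). The genotype labels were checked with Impact, the paternally expressed gene of chromosome 18, whose brightest probe set was at 328.4 in matUPD18 against 2466 in patUPD18. A dimmer Impact probe set, at 268.2 in matUPD18 against 205.3 in patUPD18, did not show that difference.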

How the data were processed

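The deposited values are MAS5 signal intensities made by the authors, 1 per probe set and array; the submitters' processing notes name MAS5 and GCOS without versions. RiboAmp amplification of the RNA preceded biotin labelling, per the labels. Such amplification favours 3' ends. The 3' over 5' control ratio was 33.95 in matUPD18 and 36.4 in patUPD18 for Gapdh. For beta-actin it was 35.7 in matUPD18 and 39.3 in patUPD18. What part the amplification has in these ratios was not tested. The 2% trimmed mean was 500.003 in matUPD18 and 500.004 in patUPD18, so the arrays had been scaled to a common level. The small number of arrays limits the precision of every value.

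Of 45101 probe sets, 34958 carried a single symbol, 932 several and 9211 none by the platform annotation. Symbols were updated through Entrez identifiers with the RefSeq gene table (GRCm38.p6), which matched 34741 probe sets besides the 64 controls. Floor, measurable limit and probe set rule are given above. The fit of the loess alternative used statsmodels 0.14.6, with Python 3.11.15, pandas 2.3.3, numpy 2.4.6 and matplotlib 3.10.9. The counting procedure was also run on simulated data with known folds, which says nothing about differences between embryos. No test was run. The 10 genes and all lists were chosen with earlier results of these data known. A gene of several tissues may be in several lists, and the 10 factors are counted in no other list. Named genes were the 10 factors, Impact, the 3 lowest and 3 highest measurable genes and the brightest gene of each list, and red cell products and sex markers at least 2-fold apart. Kdm1a, Rcor1, Gfi1, Tcf3, Tcf12, Lyl1, Ldb1, Mafg, Mafk, Epor, Spi1, Kit, Pecam1, Tie1, C1qa, Itgam and Fcer1g were added for their roles, and Rhag, Rhd and Kel for the array they passed on, after their values were seen.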

Additional observations from a re-analysis of the deposited data

How the results depend on the processing

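Alternatives changed the scaling, the floor, the probe set rule, the measurable limit or the fold threshold, 1 at a time. The count of blood factors at least 2-fold lower in matUPD18 was 3 and stayed within 1.5 times of that under 10 of 13 alternatives. It was 1 with scaling to the hybridisation controls (Gfi1b), 1 with the floor at the 60th percentile (Klf1) and 1 at a 3-fold threshold (Gfi1b). The count at least 2-fold higher was 0 under all 13. The median log2 ratio of the factors was 0.14 with scaling to the hybridisation controls and ranged from -0.73 to -0.10 under the other 10 alternatives, the outer values being those of the measurable limits. Gfi1b, Gata1, Klf1 and Tal1 stayed below 0 and Zfpm1 and Runx1 above 0 under each alternative that gave them a value. Lmo2 changed sign, to 0.46 with scaling to the hybridisation controls in place of -0.10, and Gata2 changed sign, to -0.21 under the median of measurable probe sets in place of 0.10. Of all measurable genes, 187 were at least 2-fold lower and 283 at least 2-fold higher in matUPD18. Scaling to the hybridisation controls gave 29 lower and 1639 higher. The 1.5-fold threshold gave 916 lower and 1045 higher, and the 3-fold threshold 28 lower and 48 higher. The floor at the 60th percentile gave 78 lower, and the measurable limit at the 70th percentile gave 99 lower. The causes were not tested. Dim signals limit Nfe2, Myb and Runx1, whose signals lay near or below the measurable limit. Dimness also limits the folds of Gfi1b and Gata1, which read 98.9 and 143.9 in matUPD18, below the limit of 190.1 on that array. No paired analysis was possible because each group had 1 array.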
